A study of Mus musculus with 10 samples.

Results

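Surface and granule genes of mature neutrophils, 10 in all, were examined in lung squamous cell carcinoma (SCC) and in wild-type (WT) mouse lung. They are Ly6g, Itgam, Fpr1, Fpr2 and Trem1 of the cell surface, Mpo and Elane of azurophil granules, Ngp of specific granules, and Retnlg and Stfa3 of the cytosol and secretions. A gene entered by name, and its brightest probe over the 10 arrays stood for it. Of these 10 genes, 9 had a probe, among 19096 genes with a probe on the array, and 7 were bright enough to be tested, among 15586 genes. No probe was paired with Ly6g, and it was not analysed here.

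The WT group held 5 whole lung samples of mice with floxed but intact Lkb1 (Lkb1f/f). The SCC group held 5 whole lung tumor samples of CCSPiCreLkb1f/f mice, in which the club cell secretory protein (CCSP) promoter drives Cre in airway epithelium, so that Lkb1, a kinase and tumor suppressor, is lost there and not by design in blood cells. Mice of both groups were 13 months old, were of strain B6.129 per the labels, carried the floxed Lkb1 alleles and had no further treatment. Each sample was labelled with Cy3 and hybridized to 1 one-color Agilent whole mouse genome array, and values are log2 quantile-normalized intensities.

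Neutrophils are short-lived granulocytes that leave the bone marrow with their granules already filled. Azurophil granule proteins are made early, in promyelocytes, specific granule proteins later, and surface receptors and many cytosolic proteins in the mature cell, so that a neutrophil in tissue can hold a granule protein while carrying little of its mRNA. Ly6G, CD11b (encoded by Itgam) and formyl peptide receptors are commonly used to find or to study mouse neutrophils in inflamed lung and in tumors. In whole tissue, fewer cells of a type and less RNA per cell cannot be told apart.

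SCC replicate 2 stood apart from the other SCC arrays. Over the tested probes it correlated with the WT arrays at r of 0.940 to 0.946, against 0.850 to 0.905 for the other 4 SCC arrays. SCC replicate 5 had 90.2% of probes well above background, against 71.0% to 74.3% on the other 9 arrays. The arrays lay on 3 slides. Slide 1 held WT replicates 1 to 4, slide 2 held WT replicate 5 with the SCC replicates 1 to 3, and slide 3 held the other SCC arrays, so that group and slide could be separated only on slide 2, with 1 WT array. Differences of the members are therefore also given without SCC replicate 2 and with slide as a fixed block, in which the difference comes from slide 2, and for gene lists the count called under that block is given.

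The members did not move as 1 group, and the markers that define neutrophils were only partly measured, since Ly6g had no probe and Elane and Ngp were near background on most arrays. Of the 7 tested genes, Itgam and Stfa3 were called higher in SCC and Fpr2 was called lower, where a call needed a change of 2-fold or more with a limma adjusted p under 0.05. Fpr1 passed the adjusted p but fell short of 2-fold, and Trem1, Mpo and Retnlg did not pass. Stfa3 was tested through the SCC arrays alone, where it is high, and among probes above background on all 10 arrays 6 members were tested, with Itgam called higher and Fpr2 lower. Over all tested genes, 11.6% were called higher and 13.4% lower, and over all tested probes 22.9% were called in either direction, and the counts of 2 and 1 among 7 stand beside these shares. In 1 of the 7, Stfa3, every SCC array lay above every WT array, as in 18.9% of all tested genes, and in 1, Fpr2, every SCC array lay below every WT array, as in 22.5%. Without SCC replicate 2, Itgam, Stfa3, Trem1 and Mpo were called higher and Fpr2 lower, beside 13.1% of tested genes called higher and 15.1% lower. Without SCC replicate 5 the differences of Itgam, Stfa3 and Fpr2 were 2.36, 5.19 and -1.12, and all 3 were still called. None of the 7 was called with slide as a fixed block, beside 5.24% of tested genes called higher and 6.43% lower.

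**Figure D1:**
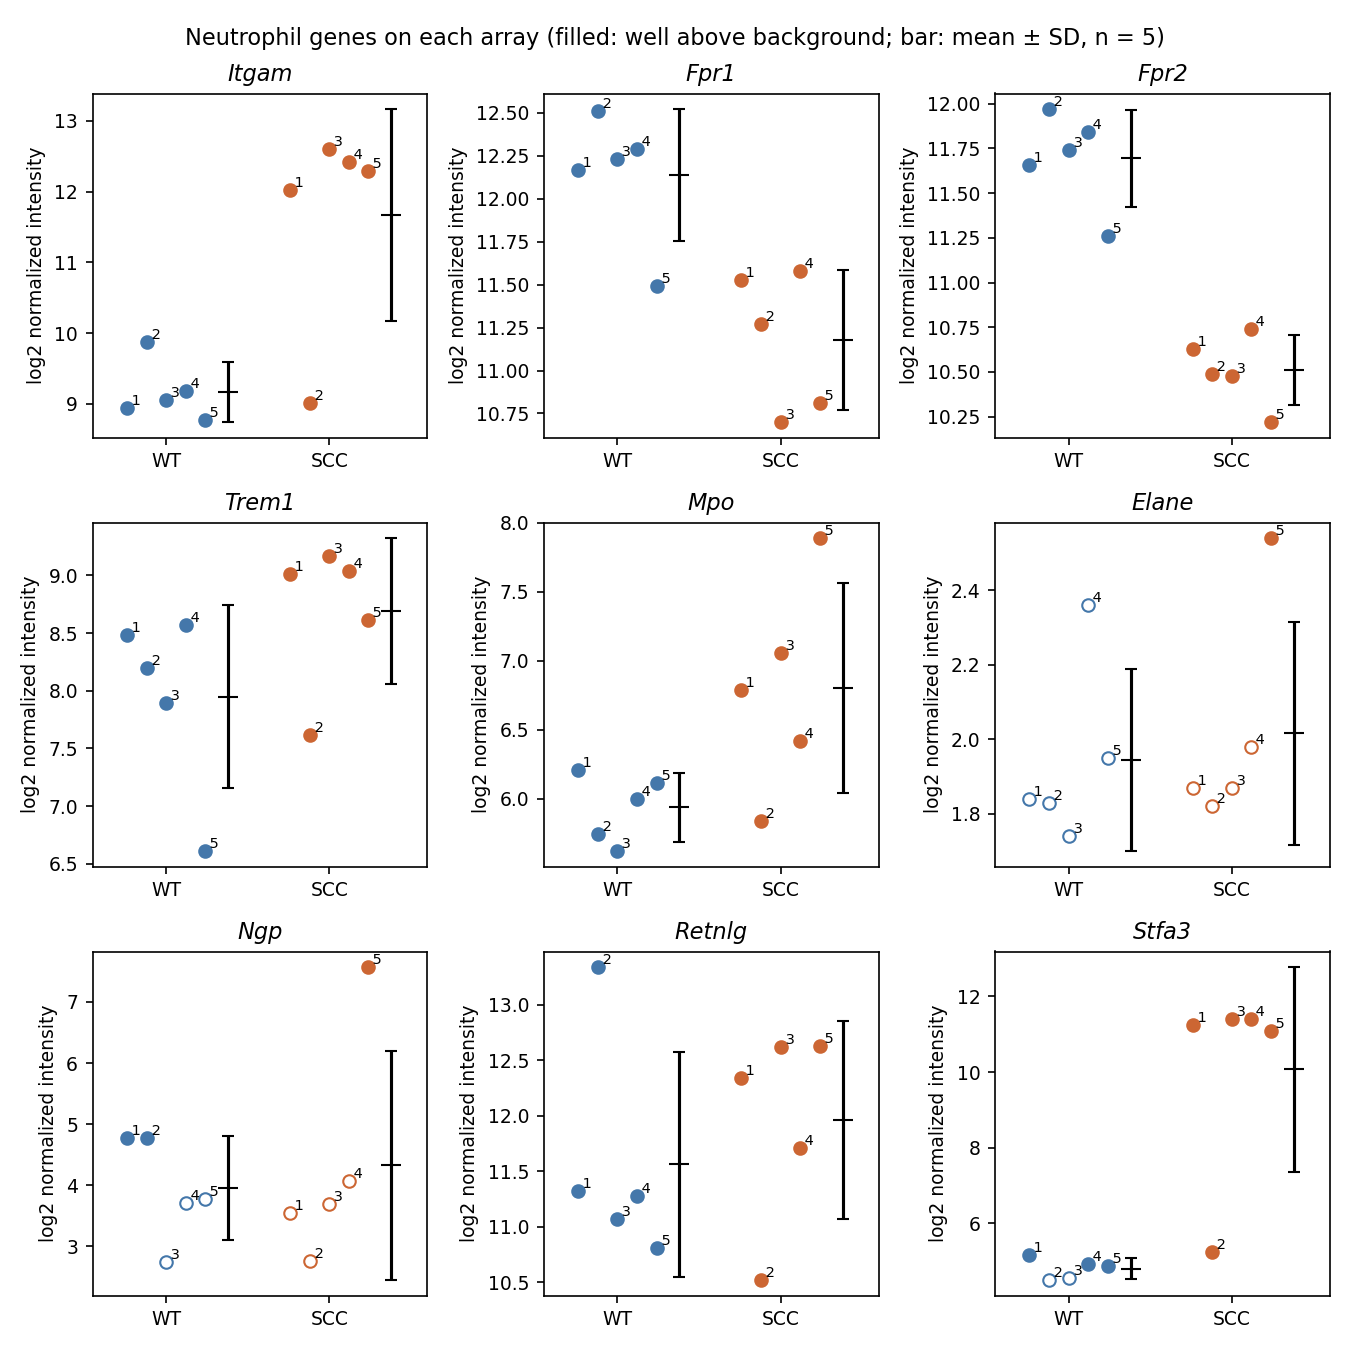
The plot of the 9 genes with a probe shows the log2 normalized intensity (y axis, a separate scale in each panel) on each WT and SCC array (x axis), with the replicate number beside each point, filled points for arrays where the probe was well above background, and bars for the mean ± SD (n = 5). Itgam and Stfa3 were high on SCC replicates 1, 3, 4 and 5 and near the WT arrays on SCC replicate 2, while Fpr2 was low on all 5 SCC arrays.

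Itgam encodes the CD11b chain of the integrin Mac-1, which neutrophils, monocytes and macrophages use for adhesion and for the uptake of complement-coated particles. Its brightest probe (A_52_P669155) read 8.94, 9.88, 9.06, 9.19 and 8.78 on WT replicates 1 to 5. It read 12.02, 9.02, 12.60, 12.42 and 12.29 on SCC replicates 1 to 5. SCC replicate 2 lay inside the WT range and the other 4 SCC arrays lay above it. SCC averaged 11.67 ± 1.5 and WT 9.17 ± 0.422 (SD, n = 5 each). They differed by 2.50 on the log2 scale (SE 0.632, limma adjusted p = 0.00892), or 5.66-fold. The exact two-sided permutation test over arrays gave p = 0.0317. A dimmer probe of Itgam (A_51_P103007) gave 2.43 (limma adjusted p = 0.0172), with SCC replicate 2, at 5.63, again the only SCC array not above the highest WT array. Without SCC replicate 2 the difference was 3.17 (SE 0.222, limma adjusted p = 4.19e-06). With slide as a fixed block the difference was 2.43 and its call was lost (SE 1.17, limma adjusted p = 0.206).

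The partners of CD11b were measured on the same arrays. Itgb2, the CD18 chain that pairs with every leukocyte integrin of this family, was higher in SCC by 1.11 (limma adjusted p = 0.0216). Itgax, the CD11c chain of macrophages and dendritic cells, was higher by 1.80 (limma adjusted p = 0.0107). In the annotation Itgam, Itgax and Itgad follow each other on chromosome 7 with no other protein-coding gene between them. Itgal, the CD11a chain of LFA-1, read lower by 0.99 and fell short of the 2-fold requirement (limma adjusted p = 0.000469). Its SCC arrays lay at -1.49 to -0.78 from the WT mean and its WT arrays at -0.21 to 0.25. Fermt3, which activates these integrins from inside the cell, differed by 0.47 (limma adjusted p = 0.223). Of the 6 genes of this list with a probe, 5 were tested and 3 were called higher, with a median difference of 1.11 beside -0.04 over all tested genes. None of the 5 was called with slide as a fixed block, where Itgb2 and Itgax differed by 1.01 and 1.67 (limma adjusted p = 0.332 and 0.257). On SCC replicate 2, Itgam, Itgax and Itgb2 lay at -0.15, -0.23 and -0.32 from their WT means, against 2.85 to 3.43, 2.17 to 2.56 and 1.32 to 1.70 on the other 4 SCC arrays.

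Macrophages also carry Itgam, and their markers moved in both directions. Of 18 tested macrophage and monocyte genes, 8 were called higher and 1 lower, with a median difference of 0.70, and with slide as a fixed block 1 was called in each direction. On SCC replicate 2, 6 of the 18 were above every WT array, beside 35.4% of all tested genes. Ms4a7, a gene of tissue macrophages, had the largest difference, 2.89, and was 10.63 on SCC replicate 2 against at most 9.22 in WT. Car4, a carbonic anhydrase also of lung endothelium, and Cx3cr1, a receptor of patrolling monocytes, had the lowest, -2.62 and -0.99, and Cx3cr1 fell short of 2-fold but was called lower without SCC replicate 2 (-1.23). The log2 of the summed level of the list ran from 17.24 to 17.49 in WT and from 16.93 to 18.19 in SCC, with SCC replicate 2 at 16.93. All 18 were well above background in both groups, and the part of these cells in the Itgam difference was not tested.

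Stfa3 encodes a stefin A, an intracellular inhibitor of cathepsins that mouse neutrophils make in large amounts. Its probe (A_51_P504815) read 5.17, 4.50, 4.55, 4.92 and 4.88 on WT replicates 1 to 5 and was well above background on 3 of them, so that its WT level was near background and it passed the filter on dim probes through the SCC arrays alone. It read 11.24, 5.24, 11.39, 11.40 and 11.08 on SCC replicates 1 to 5. The groups did not overlap, but SCC replicate 2 lay just above the highest WT array, while the other 4 SCC arrays lay far above. SCC averaged 10.07 ± 2.70 and WT 4.80 ± 0.282 (SD, n = 5 each). They differed by 5.27 (SE 1.10, limma adjusted p = 0.00328), with p = 0.00794 in the exact permutation test, the smallest that 5 against 5 arrays can give. Without SCC replicate 2 the difference was 6.45 (SE 0.150, limma adjusted p = 1.18e-08). With slide as a fixed block it was 4.41 and not called (SE 2.07, limma adjusted p = 0.196), and with normexp background correction it was 3.25.

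Stfa3 moved with its paralogs. Of the 7 stefin genes with a probe, the 5 well above background on all 10 arrays were called higher. Stfa3 and Csta2, well above background on 3 and 1 of the 5 WT arrays, were also called higher, but were tested through the SCC arrays alone, where they are high. Csta1 was higher by 5.47, Stfa1 by 4.77, Csta2 by 4.60, Stfa2l1 by 1.54 and Stfa2 by 1.5, and Cstb, the more widely made stefin B, by 1.92. The WT level of Csta2 was near background. The slide block left none of the 7 called, although their median difference was 4.18 there, and the smallest limma adjusted p was that of Cstb, 0.0536. On SCC replicates 1, 3, 4 and 5, Stfa1 lay 5.83 to 6.05 above its WT mean, and Csta1 lay 6.73 to 6.94 above. On SCC replicate 2 the same genes lay at -0.06 and -0.14, and of the 7 Cstb was the farthest above its WT mean there, at 0.70. In the annotation Csta3, Csta2, Stfa1, Stfa2 and Stfa3 stand in this order in 1 cluster on chromosome 16, with 4 other protein-coding genes between them. The paralogs are close in sequence, the probe sequences were not used here, and signal from 1 stefin A gene cannot be told apart from that of another by these values.

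Stefin A is also a protein of stratified squamous epithelium, where it is built into the cornified envelope. Of 11 tested squamous genes, 10 were called higher in SCC and none lower, with a median difference of 8.72. With the 5 genes not well above background in any WT sample set at their bounds, the median was 7.44. Those 5 genes, and Ivl with 3 WT arrays well above background, were tested through the SCC arrays alone, where they are high. With slide as a fixed block 8 of the 11 were called higher. Pkp1 of desmosomes and the keratin Krt6a were not well above background on any WT array, and both were on every SCC array. They were at least 2080-fold and at least 1500-fold higher in SCC. Sfn and Ivl had the smallest differences, 0.78 and 2.88. The log2 of the summed level of these genes was 12.93 to 13.26 in WT and 16.50 to 19.34 in SCC, and SCC replicate 2 was the lowest SCC array. The part of these cells in the Stfa3 difference was not tested.

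**Figure D2:**
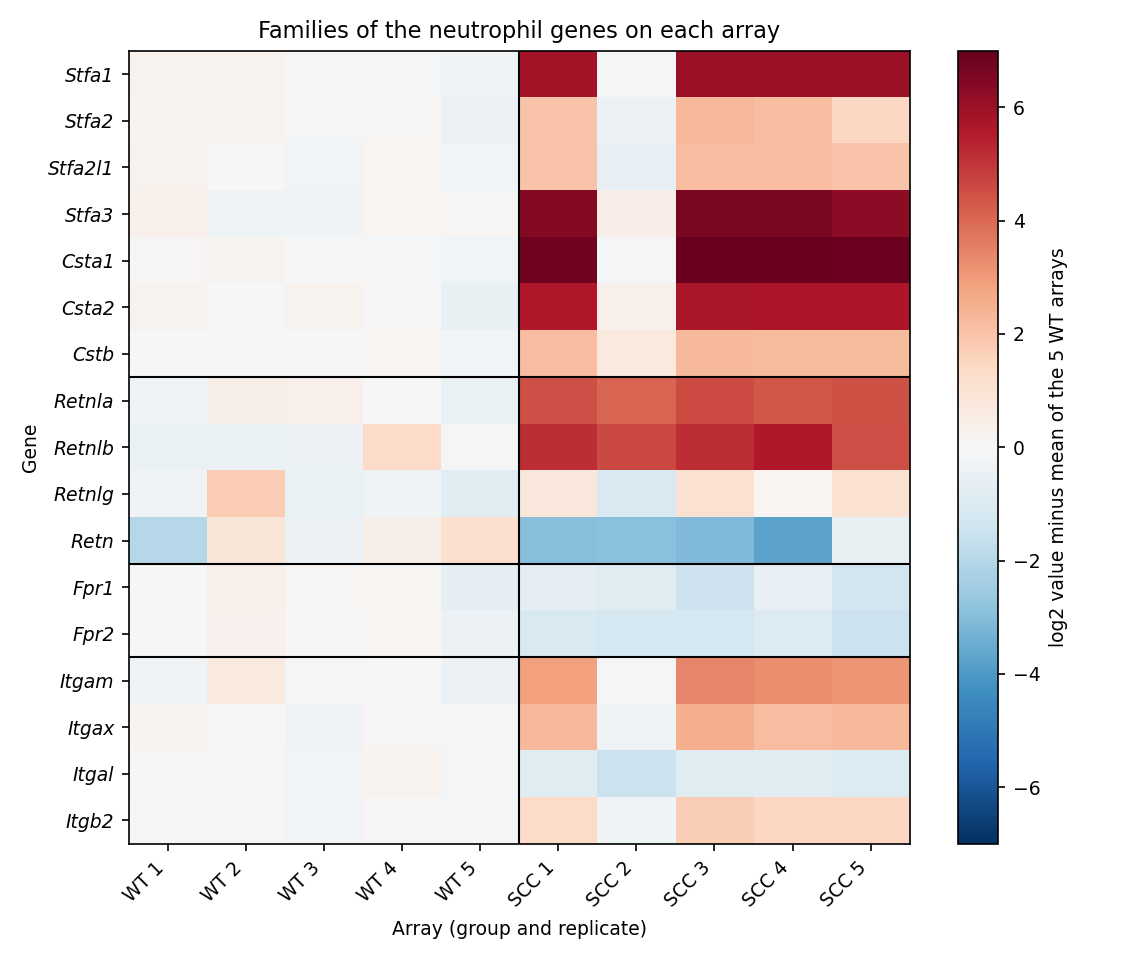
The heat map shows, for genes of the stefin (top), resistin, formyl peptide receptor and beta 2 integrin families (rows, separated by lines), the log2 value on each array (columns) minus the mean of the 5 WT arrays, with red for higher and blue for lower values. SCC replicate 2 was near WT for the stefin A genes, Itgam, Itgax and Itgb2, and with the other SCC arrays for Retnla, Retnlb, Fpr1 and Fpr2.

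The upstream sequences of Itgam and Stfa3 are shown because both genes rose on the same 4 arrays, and those of Fpr1 and Fpr2 because these neighbors both read lower. Each holds the 250 bases before the RefSeq start site (GRCm38.p6), read 5′ to 3′ on the strand of the gene, and lies at chr7:128062390-128062639 (plus strand), chr16:36455393-36455642 (minus strand), chr17:17883940-17884189 (minus strand) and chr17:17887574-17887823 (plus strand). Capitals mark matches on either strand to the letters GAGGAA, a core bound by the myeloid factor PU.1, to TGTGGT, a core bound by RUNX factors, and to TTGCNNAA, a core bound by C/EBP factors.
Itgam: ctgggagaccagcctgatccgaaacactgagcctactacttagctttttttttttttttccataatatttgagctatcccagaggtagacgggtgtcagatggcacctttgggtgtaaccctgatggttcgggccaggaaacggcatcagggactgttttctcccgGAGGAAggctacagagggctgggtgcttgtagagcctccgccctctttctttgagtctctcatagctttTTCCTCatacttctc
Stfa3: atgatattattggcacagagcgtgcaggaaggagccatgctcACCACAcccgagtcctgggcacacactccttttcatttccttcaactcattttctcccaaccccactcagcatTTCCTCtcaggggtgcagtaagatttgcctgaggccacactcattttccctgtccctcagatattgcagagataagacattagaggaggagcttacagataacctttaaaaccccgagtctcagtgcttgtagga
Fpr1: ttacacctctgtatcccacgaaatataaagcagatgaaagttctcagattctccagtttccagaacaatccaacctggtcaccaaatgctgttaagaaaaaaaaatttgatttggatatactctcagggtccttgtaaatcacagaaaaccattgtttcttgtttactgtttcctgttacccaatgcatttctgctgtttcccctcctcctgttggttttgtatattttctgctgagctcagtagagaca
Fpr2: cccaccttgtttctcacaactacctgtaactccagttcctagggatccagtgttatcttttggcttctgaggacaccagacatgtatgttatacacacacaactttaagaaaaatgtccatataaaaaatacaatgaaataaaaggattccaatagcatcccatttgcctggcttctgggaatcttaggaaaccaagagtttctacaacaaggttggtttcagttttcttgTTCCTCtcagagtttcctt
The capitals in Itgam are 2 matches to GAGGAA, 1 on each strand. Stfa3 held 1 match to GAGGAA and 1 to TGTGGT, Fpr2 held 1 to GAGGAA, and Fpr1 held none of the 3. Over all 10 members, which had a window each, 7 held GAGGAA, 3 held TTGCNNAA and 1 held TGTGGT. Over the 27025 genes with such a window, 23.1% held GAGGAA, 9.55% held TTGCNNAA and 14.2% held TGTGGT. These matches are letters in a window and were not measured as binding.

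Fpr1 and Fpr2 encode the receptors with which neutrophils and macrophages sense formylated peptides of bacteria and of damaged mitochondria. They are next to each other on chromosome 17. Both read lower in SCC, the opposite direction to Itgam and Stfa3. Fpr2 was 11.66, 11.97, 11.74, 11.84 and 11.26 on WT replicates 1 to 5 and 10.63, 10.49, 10.48, 10.74 and 10.22 on SCC replicates 1 to 5. The groups did not overlap, and SCC replicate 2 lay with the other SCC arrays. SCC averaged 10.51 ± 0.196 and WT 11.70 ± 0.269 (SD, n = 5 each). SCC minus WT was -1.18 (SE 0.149, limma adjusted p = 0.000175), with p = 0.00794 in the exact permutation test. The dimmer probe of Fpr2 gave -1.39 (limma adjusted p = 0.00373), also with no overlap.

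Fpr1 read 12.17, 12.51, 12.23, 12.29 and 11.49 on WT replicates 1 to 5. It read 11.53, 11.27, 10.70, 11.58 and 10.81 on SCC replicates 1 to 5. WT replicate 5, the only WT array on slide 2, was below 2 of the SCC arrays. The difference was -0.96 (SE 0.234, limma adjusted p = 0.00747), which is 1.94-fold and so was not called. Without SCC replicate 2 it was -0.99 for Fpr1 and -1.18 for Fpr2. Leaving out 1 array in turn gave -1.12 to -0.84 for Fpr1, and it was called lower without WT replicate 5 (-1.12, limma adjusted p = 0.00271), without SCC replicate 1 (-1.04, limma adjusted p = 0.0088) and without SCC replicate 4 (-1.06, limma adjusted p = 0.00761).

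Slide 2 gave smaller differences for both receptors. With slide as a fixed block, the difference was -0.32 for Fpr1 (SE 0.373, limma adjusted p = 0.611) and -0.73 for Fpr2 (SE 0.229, limma adjusted p = 0.0765), and the call of Fpr2 was lost. The dimmer probe of Fpr2 gave -0.42 there (limma adjusted p = 0.566). The third tested gene of the family, Fpr-rs3, was dim and differed by -0.10 (limma adjusted p = 0.842). Of the 3 tested genes of this family, 1 was called lower, with a median difference of -0.96.

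**Figure D3:**
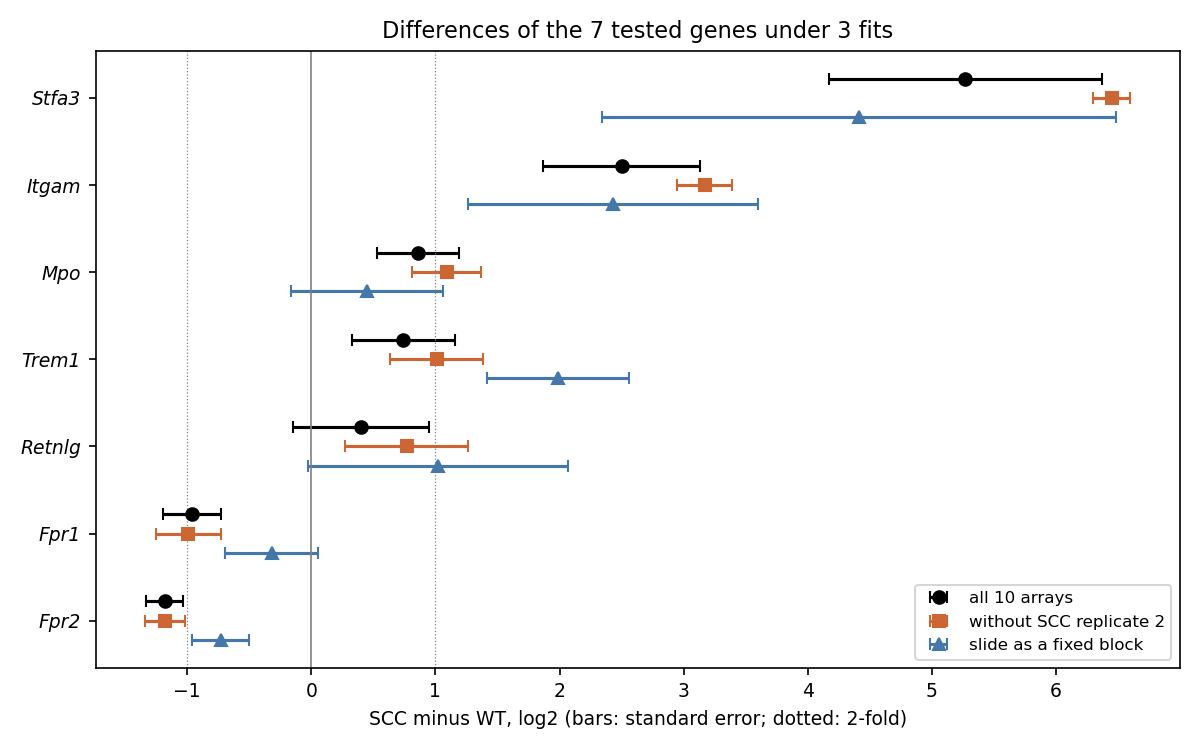
The plot of differences shows SCC minus WT on the log2 scale (x axis) for the 7 tested genes (y axis), from all 10 arrays (black circles), without SCC replicate 2 (orange squares) and with slide as a fixed block (blue triangles). Bars are standard errors and dotted lines mark 2-fold. Leaving out SCC replicate 2 moved Stfa3 from 5.27 to 6.45 and Itgam from 2.50 to 3.17, and the slide block moved Fpr1 from -0.96 to -0.32.

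Trem1 encodes an activating receptor that amplifies inflammatory signaling in neutrophils and monocytes. Its brightest probe (A_52_P415116) read 8.48, 8.20, 7.89, 8.57 and 6.61 on WT replicates 1 to 5. It read 9.01, 7.62, 9.17, 9.04 and 8.61 on SCC replicates 1 to 5. SCC replicates 1, 3, 4 and 5 were above every WT array and SCC replicate 2 was below 4 of them. The difference was 0.74 (SE 0.415, limma adjusted p = 0.163), and without SCC replicate 2 it was 1.01 (SE 0.375, limma adjusted p = 0.0449). With slide as a fixed block it was 1.99 (SE 0.573, limma adjusted p = 0.0601), and without WT replicate 5, the lowest array, it was 0.41. The probes of Trem1 disagreed on the call. The dimmer one (A_51_P398491) was called higher, by 1.52 (SE 0.452, limma adjusted p = 0.019), with the same 4 SCC arrays above every WT array. Its difference under the slide block was 2.15, which was not called (limma adjusted p = 0.0988).

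Of the other Trem genes, Trem2, a lipid receptor of macrophages, was called higher by 2.29, and Treml4 was called lower by 2.13 on the log2 scale. Trem3 and Treml1 differed by -0.34 and -0.46 and were not called. The adaptor gene Tyrobp differed by 0.83, which passed the limma adjusted p (0.0329) but not the 2-fold requirement. In all, 6 genes of the list were tested, 1 was called higher and 1 lower, with a median of 0.20. The count called higher was 3 without SCC replicate 2 (Trem1, Trem2 and Tyrobp), with a median of 0.49. Under the slide block Treml4 was still called lower, and Trem2 was not called (1.62, limma adjusted p = 0.226).

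Of the granule genes, Mpo was well above background on all 10 arrays, and Elane and Ngp on few. Mpo encodes myeloperoxidase, the azurophil enzyme that makes hypochlorous acid. It read 6.21, 5.74, 5.62, 6.0 and 6.11 on WT replicates 1 to 5 and 6.79, 5.84, 7.06, 6.42 and 7.89 on SCC replicates 1 to 5. Again SCC replicates 1, 3, 4 and 5 were above every WT array, and SCC replicate 2 was inside the WT range. The difference was 0.86 (SE 0.33, limma adjusted p = 0.0527). It was 1.09 without SCC replicate 2 (limma adjusted p = 0.008), 0.62 without SCC replicate 5, the highest array, 0.41 with normexp background correction (limma adjusted p = 0.0542) and 0.45 with slide as a fixed block (SE 0.614, limma adjusted p = 0.67).

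Elane encodes neutrophil elastase. Its values lay between 1.74 and 2.54 over the 10 arrays, and only SCC replicate 5 was well above background. Ngp, a specific granule protein of the cathelicidin family, read 4.78 and 4.77 on WT replicates 1 and 2 and 7.57 on SCC replicate 5, and was not well above background on the other 7 arrays. Neither gene was tested. SCC replicate 5, the highest array for Mpo, Elane and Ngp, is also the array with the raised share of probes above background, and the part of that in these values was not tested.

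Retnlg encodes a resistin-like protein of neutrophils and bone marrow. It read 11.32, 13.34, 11.07, 11.28 and 10.81 on WT replicates 1 to 5. It read 12.34, 10.52, 12.62, 11.71 and 12.63 on SCC replicates 1 to 5. WT replicate 2 was the highest of all 10 arrays and SCC replicate 2 the lowest, so that the groups overlapped. The difference was 0.40 (SE 0.549, limma adjusted p = 0.564), 0.77 without SCC replicate 2 (limma adjusted p = 0.212), 0.84 without WT replicate 2, 0.24 without SCC replicate 3 or 5, 0.21 without WT replicate 5 and 1.02 with slide as a fixed block (SE 1.05, limma adjusted p = 0.563).

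Retnlg stands beside Retnla and Retnlb on chromosome 16, with no other protein-coding gene between them, and these neighbors behaved otherwise. Retnla, a product of alternatively activated macrophages and airway epithelium, was higher in SCC by 4.39 (limma adjusted p = 4.12e-07). Its SCC arrays lay 4.09 to 4.54 above the WT mean, SCC replicate 2 included. Retnlb, a goblet cell product, stood well above background on every SCC array, not on any WT array, and was at least 8.32-fold higher. Retn, the resistin gene itself, was lower by 2.65 on the log2 scale (limma adjusted p = 0.012) and well above background on all 5 WT arrays but only 1 SCC array, so that its SCC level was near background. Of the 4 genes of this list, 2 were called higher and 1 lower. Retnlb was tested through the SCC arrays alone and Retn through the WT arrays alone, in each case the group where it is high. Under the slide block Retnla and Retnlb were still called, and Retn was not (-4.14, limma adjusted p = 0.0764).

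Other genes of neutrophils were read from lists of granule, receptor, oxidase and cytosolic genes. Besides the members, 72 genes of these lists were tested, of which 39 were called higher and 1 lower, with a median difference of 1.12. Over all tested genes, 11.6% were called higher and 13.4% lower. Without SCC replicate 2, 45 were called higher and 1 lower, beside 13.1% and 15.1% of all tested genes. On SCC replicate 2 itself, 30 of the 72 lay above every WT array, beside 35.4% of all tested genes. With the members included the counts were 41 and 2 of 79, with a median of 1.09. With slide as a fixed block 14 of the 79 were called higher and none lower, beside 5.24% and 6.43% of all tested genes. Their median was 1.25 there. The shares over all tested genes also stand beside the counts of the single lists above and below.

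Most azurophil granule genes were not called. Of 5 tested, 1 was called higher and none lower, with a median of 0.83. It was Serpinb1a, a cytosolic inhibitor of elastase and cathepsin G, higher by 1.71. The 2 called higher without SCC replicate 2 were Serpinb1a and Mpo, and Serpinb1a and Cd63 were called higher with slide as a fixed block. Ctsg and Prtn3, which encode the serine proteases cathepsin G and proteinase 3, differed by 0.11 and 0.21 (limma adjusted p = 0.663 and 0.496). Of 16 tested genes of specific and gelatinase granules, 8 were called higher and none lower, with a median of 1.22, and with slide as a fixed block 4 were called higher. Ltf, the iron-binding lactoferrin, was higher by 8.80, Pglyrp1, a peptidoglycan-binding protein, by 4.23, and Orm1, an acute-phase protein, by 3.30. Chil3 and Lyz2 differed by -0.08 and 0.23. Ltf was 18.29 on SCC replicate 2 and 18.10 to 18.29 on the other SCC arrays, against 8.26 to 9.81 in WT. Ltf and Pglyrp1 are also made by glandular epithelium and other cells.

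Surface receptor genes rose in 19 and fell in 2 of 33 tested, with a median of 1.11. Under the slide block 2 were called higher, Ceacam1 and Cd14, and none lower. Il1r2, the decoy receptor for interleukin-1, was higher by 3.88, Clec5a, a myeloid lectin, by 2.74, Ceacam1, an adhesion molecule also of epithelium, by 2.64 and Cd14, the endotoxin co-receptor, by 2.56. Fpr2 was among those that fell. Tlr2 and Pilra differed by 0.08 and 0.09. In the list of the NADPH oxidase, the enzyme of the respiratory burst, 2 of 7 were called higher and none lower, with a median of 0.69. They were Cyba, at 1.13, and Ncf4, at 1.07, and without SCC replicate 2 the count was 5 and with slide as a fixed block 0, although Cyba was at 1.18 there (limma adjusted p = 0.0512). Rac2 and Ncf1 differed by 0.35 and 0.37.

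Cytosolic and secreted genes were called higher in 12 of 20 and lower in none, with a median of 1.57, and higher in 6 with slide as a fixed block. After Stfa3 the largest differences were those of Il1rn, the interleukin-1 receptor antagonist, at 4.21, Slfn4, a schlafen of myeloid cells, at 3.74 and Ccl3, a chemokine, at 3.56. Alox5ap and Wfdc21 differed by 0.04 and 0.12. Of 9 tested transcription factors and adaptors of granulocytes, 3 were called higher and none lower, with a median of 0.32. These were Mxd1, which opposes MYC, at 2.61, Klf5, also an epithelial factor, at 2.35 and Runx1 at 1.28. Ets2 and Cebpd differed by -0.16 and -0.27. With slide as a fixed block Klf5 and Runx1 were still called, and Mxd1, at 2.30, was not (limma adjusted p = 0.252). Of the 5 tested genes of the Ly6 list, which lie beside Ly6g or resemble it, none was called, with a median of 0.84, and 3 were called higher without SCC replicate 2. Under the slide block none was called, with Ly6f at 0.03 and Ly6c2 at -0.32. Of the heme peroxidases, Mpo and Lpo were tested, at 0.86 and 0.85, and neither was called, while without SCC replicate 2 Mpo was.

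**Figure D4:**
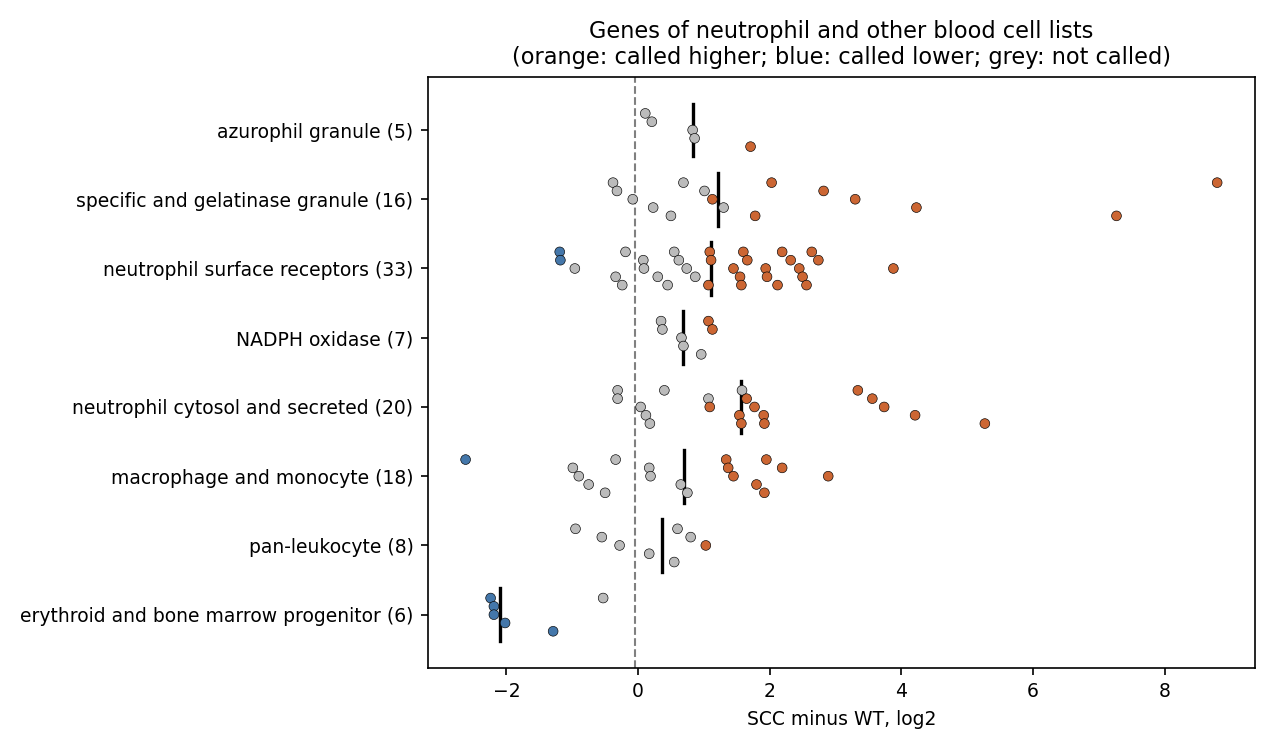
The plot of gene lists shows SCC minus WT on the log2 scale (x axis) for each tested gene of 5 neutrophil lists and 3 lists of other blood cells (rows, with the number of genes tested), where black bars are list medians and the dashed line is the median of all tested genes, -0.04. Surface receptor genes had 19 called higher (orange) and 2 lower (blue), while 5 of the 6 erythroid and progenitor genes were called lower.

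Other blood cell lists moved in several directions. Of 8 pan-leukocyte genes, 1 was called higher, Cd53, a tetraspanin, at 1.03, and none lower, with a median of 0.36, while with slide as a fixed block none was called higher and Coro1a was called lower. Vav1 without SCC replicate 2 was called too (1.03, limma adjusted p = 3.51e-05), which made 2, with a median of 0.58. Over all arrays Vav1 differed by 0.80, and Ptprc, which encodes CD45, and Coro1a by -0.55 and -0.95, which did not reach 2-fold. The log2 of the summed level of this list was 15.80 to 16.17 in WT and 15.24 to 16.25 in SCC, with SCC replicate 2 the lowest. Of 6 tested erythroid and progenitor genes, 5 were called lower, with a median of -2.10, and none was called with slide as a fixed block. The globin genes Hba-a1 and Hbb-bt had the lowest differences, -2.24 and -2.19, and Cd34 and Slc4a1 the highest, -0.53 and -1.29. Their summed level was 17.50 to 18.45 in WT and 15.61 to 17.37 in SCC on the same scale, and the part of blood left in the tissue in these differences was not tested.

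Of 7 tested genes of mast cells, basophils and eosinophils, 1 was called higher and 2 lower, with a median of 0.12. Leaving out SCC replicate 2 gave 2 called higher, since Prg2 passed (3.60, limma adjusted p = 0.00128). Prg2 was well above background on 2 WT and 4 SCC arrays, and so was tested through the SCC arrays alone, where it is high. Only Cma1 was called with slide as a fixed block, also lower. The protease gene Mcpt4 was higher by 4.33, Prg2 differed by 2.50 and was not called, and Cpa3 and Cma1 were lower by 2.51 and 1.70 on the log2 scale. Cpa3 was well above background on only 2 SCC arrays, so that its SCC level was near background. It was tested through the WT arrays alone, where it is high. Of 11 lung epithelial genes, 4 were called lower and none higher, with a median of -0.81, and 2 were called lower with slide as a fixed block. Ager and Scgb1a1 had the lowest differences, -2.21 and -1.33, and Aqp5 and Sftpd the highest, 0.64 and 0.20, neither of them called.

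Each SCC array was also set against the WT range for the 7 tested members. SCC replicates 1, 3, 4 and 5 each had 4 members above the highest WT array, and SCC replicate 2 had 1, Stfa3. Below the lowest WT array were 3 members on SCC replicate 2, 2 each on SCC replicates 3 and 5 and 1 each on SCC replicates 1 and 4. Over all tested genes, 35.4% to 39.9% lay above the highest and 38.3% to 45.8% below the lowest WT array on a single SCC array. The median shift from the WT mean was -0.33 on SCC replicate 2 and 0.48 to 1.12 on the other 4 SCC arrays.

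The genes whose profiles over the 10 arrays came nearest to a member were found by the root mean square of the difference between centered log2 profiles, over all tested genes. Nearest to Itgam were Mxd1 (0.242) and Gcnt1 (0.262). Nearest to Stfa3 were Prss46 (0.265) and B3galt5 (0.268). Nearest to Fpr2 were Susd3 (0.135) and Il16 (0.138), and nearest to Fpr1 were Ltc4s (0.194) and Pf4 (0.201). For Trem1 it was C5ar2 (0.227), for Mpo Noxa1 (0.179) and for Retnlg Gapt (0.277). These are descriptions of 10 points that share the group difference and the array, and no test was made of them.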

How the data were processed

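Expression was measured in 5 WT lungs and 5 SCC by one-color arrays, with groups taken from the sample titles. Per the labels and file headers, the authors read the scans with Agilent Feature Extraction (version 12), whose deposited processed intensity is a background-subtracted linear signal per spot. A log2 matrix that the authors deposited correlated with the values computed here at r of 0.9999 or more on each array, and was used to choose each gene's brightest probe and as an alternative.

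Control and outlier spots were left out, spots of a probe were averaged on the log2 scale, and 41174 probes were quantile-normalized, of which 113 lacked a value on at least 1 array and none was saturated. A probe was well above background where at least 0.5 of its spots were flagged so, and 30374 probes that met this on 4 or 5 arrays of a group were tested. SCC minus WT was estimated by limma (version 3.58.1, R 4.3.3) from all 10 arrays without covariates, and p-values were adjusted by Benjamini-Hochberg across those probes. A call needed an adjusted p below 0.05 and 2-fold. The fit was checked on simulated data. Single values were compared by an exact two-sided permutation test over 252 splits. Where a group had no array above background, a fold is a bound against the mean, per array, of the higher of the lowest signal among probes above background and the probe's own signal. The number of arrays limits the precision, and p-values measure the spread between these samples, which the labels separate by replicate number only.

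Accessions were matched without versions to RefSeq genes (GRCm38.p6), which named 28223 probes. The file headers name another build, so no gene coordinates are given, and promoter windows are RefSeq's. The members and lists were chosen with earlier results of these data known. Named are the members and their families, up to 4 called genes highest, 3 lowest and 2 nearest 0 in other neutrophil lists, and the 2 highest and 2 lowest in other lists, except 3 genes whose values are not reported here. Nearest profiles, planned for Ly6g, were taken for the 7 tested members after their values were seen. Alternatives were 75th percentile scaling, normexp (offset 50) on the median spot signal, since no mean signal was given, and the deposited matrix. Others were no filter, a filter on all 10 arrays, slide as a fixed or random block, slide 2 alone and a replicate block. The rest were an equal-variance t-test, no fold requirement, leaving out arrays, and other probes. Same-numbered WT and SCC samples did not deviate together (r of -0.103 to 0.009), so replicate numbers were not taken as pairs.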

Additional observations from a re-analysis of the deposited data

Results flagged for a closer look

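In groups of 5 arrays, a value was singled out where its gap to the nearest other array, as a share of the range of its group, was above 0.71, which chance gives in about 1 of 20 groups. Of 38 groups examined over the probes of the tested members and the stefin and resistin genes, 12 held such an array, and in 9 it was SCC replicate 2. The groups share the same arrays, and several probes read the same gene or close paralogs. They are therefore not independent, and their count cannot be set against that rate. It was the lowest of the SCC arrays for both probes of Itgam (0.839 and, for the dimmer one, 0.843), for Stfa3 (0.947) and for the dimmer probe of Trem1 (0.844). The other stefin genes with this array lowest were Stfa1 (0.965), Stfa2l1 (0.932), Csta1 (0.97), Csta2 (0.973) and Cstb (0.955). Csta2 was 4.10 on SCC replicate 2, against 9.35 to 9.49 on the other SCC arrays.

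WT replicate 2 was the highest WT array for Retnlg (0.798), at 13.34 against 10.81 to 11.32. SCC replicate 5 was the highest SCC array for Retn (0.744), at 5.98 against 2.79 to 3.61. WT replicate 4 was the highest WT array for Retnlb (0.787), at 3.42 against 1.64 to 2.02, where no WT array was well above background.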

How the results depend on the processing

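No tested member changed direction under the alternatives run. The main counts were 6954 probes called, 3 members and 43 list genes. The counts that moved by over 1.5 times were the members without SCC replicate 2 (5) and those with slide as a fixed block (2988 probes, 0 members, with 1 past an unadjusted limma p below 0.05 and 2-fold, and 14 list genes), slide 2 alone, where the lone WT array is assumed to vary like the SCC arrays (0 probes, 0 members and 0 list genes in limma, with 4584, 0 and 16 at that unadjusted p), normexp (3969 probes), and adjusted p alone with no fold requirement (14878 probes). Leaving out 1 array at a time gave 6210 to 8095 probes, 3 to 5 members (5 without SCC replicate 2) and 38 to 51 list genes. An equal-variance t-test called 5867 probes, 3 members and 33 list genes at an unadjusted p below 0.01. After Benjamini-Hochberg adjustment it called 6525, 3 and 41.

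With the replicate block, 6571 probes, 3 members and 40 list genes were called. Scaling to the 75th percentile moved the median difference over tested probes from -0.0903 to 0.0318. Slide 2 alone lost the passes of Itgam, Stfa3, Fpr1 and Fpr2, and Mpo passed the adjusted p among probes above background on all 10 arrays (0.0489), with slide as a random block (0.0479) and without SCC replicates 2 and 5 together (0.00403, difference 0.82). The causes of these moves were not tested. Signals near background limit Elane and Ngp.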
